A study of Mus musculus with 8 samples.

Results

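The glucocorticoid receptor gene Nr3c1 and 9 genes known to respond to it were examined in whole mouse uterus after inhalation of electronic cigarette aerosol. The responsive genes were Tsc22d3, Zbtb16, Klf9, Ddit4, Pdk4, Angptl4, Cebpd, Txnip and Cdkn1a. They were chosen by gene symbol in the platform annotation, and all 10 of the 19505 genes measured were found, each on 1 probe set. The exposed group comprised 4 wild-type C57BL/6J females given aerosol in daily sessions of 3 hours, with 2 puffs of about 2 seconds each minute from an atomizer at 245 °C. The liquid was propylene glycol and vegetable glycerin at 55 to 45 with 24 mg/mL nicotine and no flavouring. Sessions were held 5 days a week for 4 weeks, then mating followed and sessions went on each day up to collection. The sham group comprised 4 wild-type C57BL/6J females kept on room air. Females of both groups were mated to vasectomised males and their uteri were taken on the morning of day 4.5 of pseudopregnancy, a state in which the uterus is under the hormones of early pregnancy without an embryo. Their age was not given in the sources used here. Since sham mice received no aerosol, nicotine and its carrier cannot be told apart. Each array holds the RNA of 1 mouse, values are log2 expression, and precision is limited by there being 4 arrays a group.

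The glucocorticoid receptor is a steroid receptor held in the cytoplasm by HSP90 and its cochaperones. Once it binds corticosterone, the main glucocorticoid of mice, it enters the nucleus and binds palindromic DNA elements that the progesterone and mineralocorticoid receptors can also bind. In the uterus, corticosterone is regenerated locally by the enzyme encoded by Hsd11b1 and inactivated by that encoded by Hsd11b2. Several of the responsive genes also answer to other inputs, such as fasting signals through FOXO and PPAR factors (Pdk4, Angptl4), glucose (Txnip) and p53 (Cdkn1a).

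Of the arrays, exposed mice 2 and 4 stood apart on the first principal component, which carried 38.6% of the variance. They lay at 26.1 and 40.6, the other 6 mice between -18.8 and 1.9. Mean log2 values over 8 uterine identity markers (among them Hoxa10, Hoxa11, Pgr and Esr1) were 9.42 to 9.61 in exposed and 9.40 to 9.58 in sham mice, and all 8 markers were measured. Averaged over 9 measured adipocyte markers of 10, exposed mice 1 and 2 had 6.73 and 6.85 and the other 6 mice 5.72 to 6.13. Averaged over 6 gland markers, exposed mice 3 and 4 had 8.14 and 9.67 and the other 6 mice 6.89 to 7.75. The markers did not move together: in exposed mouse 4 Prss28, Prss29 and Spink1, all secreted gland products, were the highest of the 8 mice (12.64, 12.04 and 12.22), and Foxa2 and Cxcl15 the lowest (7.16 and 6.51). Epithelium markers averaged 8.69, 8.79, 8.68 and 8.27 in exposed mice and 8.76 to 9.13 in sham mice, with lower means for 6 of 8. Smooth muscle markers had lower means for 8 of 8 and averaged 10.54 to 11.21 in exposed and 10.90 to 11.32 in sham mice. Limma placed 0 of 22206 probe sets (0%) past a threshold of 0.05 after Benjamini-Hochberg adjustment. Before adjustment 1203 were under 0.05.

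None of the 10 genes passed limma's test over all probe sets, and the smallest adjusted p was 0.838. Without adjustment, 1 of the 10 (Txnip) reached p under 0.05 as higher in exposed uteri, where 2.91% of all probe sets did so. As lower in exposed uteri, 0 did so, against 2.5% of all probe sets. The mean was higher in exposed uteri for 6 members and lower for 4. The median log2 difference, exposed minus sham, was 0.10 over the members and 0.0014 over all probe sets. Exposed and sham values did not overlap for 0 of the 10 members, and for 2.73% of all probe sets. The same shares of 2.91% higher, 2.5% lower and 2.73% without overlap stand beside the counts in every gene list below. These uteri are bulk samples, so fewer cells of a type and less RNA per cell cannot be told apart.

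**Figure D1:**
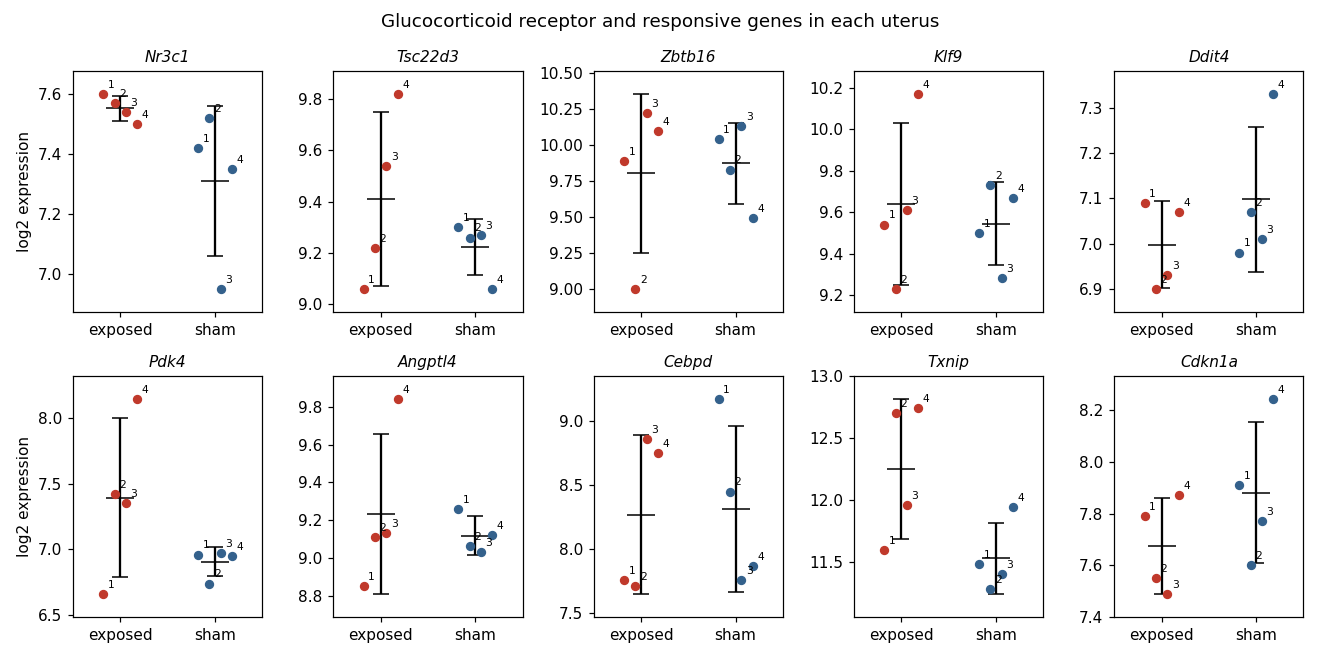
Log2 expression of the receptor gene and its 9 responsive genes in each uterus, exposed mice on the left of each panel and sham mice on the right. Points are mice, numbered as in the labels, and bars give the mean ± SD of 4 mice. Exposed mouse 4 is the highest point for Tsc22d3, Klf9, Pdk4, Angptl4 and Txnip, and the groups overlap in every panel.

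Nr3c1, which encodes the receptor itself, differed little between mice apart from 1 sham mouse. It was 7.60, 7.57, 7.54 and 7.50 in exposed mice 1 to 4, against 7.42, 7.52, 6.95 and 7.35 in sham mice 1 to 4. Exposed values lay close together, and 3 of them were above every sham value, while exposed mouse 4 fell just below sham mouse 2. The difference was 0.24 ± 0.12 (SE) on the log2 scale, with a 95% interval of -0.03 to 0.51 (limma, adjusted p = 0.838, exact two-sided permutation p = 0.0571). Without sham mouse 3, the lowest, it was 0.124.

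Txnip showed the largest difference in means of the 10 genes. It encodes an α-arrestin that binds thioredoxin and limits glucose uptake. It was 11.59, 12.70, 11.96 and 12.74 in exposed mice 1 to 4, against 11.48, 11.28, 11.40 and 11.94 in sham mice 1 to 4. Exposed mice 2 and 4 were the highest, exposed mouse 3 was level with sham mouse 4, and exposed mouse 1 lay among the sham mice. The mean was 12.25 ± 0.56 in exposed and 11.53 ± 0.29 in sham mice (SD, n = 4 each), a 1.65-fold difference (log2 difference 0.72 ± 0.26 SE, 95% interval 0.15 to 1.29). Limma's unadjusted p was 0.0177, the adjusted p 0.838 and the exact two-sided permutation p 0.0571. Without exposed mice 2 and 4 the log2 difference was 0.253. Leaving out exposed mouse 2, exposed mouse 4 or sham mouse 2 gave differences of 0.574, 0.559 and 0.643 with unadjusted p in limma of 0.0535, 0.0525 and 0.0505.

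Arrdc4, an α-arrestin related to Txnip and likewise induced by glucose, had a similar difference. It was 8.37, 9.12, 8.83 and 9.32 in exposed mice 1 to 4, against 8.28, 8.11, 8.39 and 8.05 in sham mice. Exposed mice 2, 3 and 4 lay above all sham mice, and exposed mouse 1 was just under sham mouse 3. The log2 difference was 0.70 ± 0.19 (SE; limma unadjusted p = 0.00346, adjusted p = 0.838), and 0.394 without exposed mice 2 and 4. A list of 7 measured genes joined genes of glucose sensing and uptake with the thioredoxin genes Txn1 and Txnrd1. Of the 7, Arrdc4 reached an unadjusted p under 0.05 in limma as higher. Txnrd1, a thioredoxin reductase, did so as lower (-0.34 ± 0.14, or -0.203 without exposed mouse 4), and 0 passed adjustment. The list had 2 higher and 5 lower means and a median difference of -0.04. Mlx, the dimerisation partner of the glucose-sensing factors, differed by -0.22 ± 0.13, or -0.133 without exposed mouse 4.

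The promoters of Txnip and Arrdc4 are shown because these were the member and the α-arrestin relative with the largest differences, and that of Klf9 because it shares a FOXO motif with Txnip. Each runs from 250 bases before to 50 after a RefSeq start site in assembly GRCm38.p6. Capitals mark matches, on either strand, to the glucocorticoid receptor palindrome (GNACA, 3 bases of any kind, TGTNC), the FOXO motif GTAAACA and the E-box CACGTG.
Txnip, chr3:96557707-96558006, plus strand: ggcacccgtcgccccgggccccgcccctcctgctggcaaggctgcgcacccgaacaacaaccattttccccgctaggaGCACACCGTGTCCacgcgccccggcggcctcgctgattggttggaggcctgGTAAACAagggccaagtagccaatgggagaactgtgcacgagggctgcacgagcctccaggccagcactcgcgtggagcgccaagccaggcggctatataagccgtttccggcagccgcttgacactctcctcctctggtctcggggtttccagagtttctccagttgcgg
Klf9, chr19:23140976-23141275, plus strand: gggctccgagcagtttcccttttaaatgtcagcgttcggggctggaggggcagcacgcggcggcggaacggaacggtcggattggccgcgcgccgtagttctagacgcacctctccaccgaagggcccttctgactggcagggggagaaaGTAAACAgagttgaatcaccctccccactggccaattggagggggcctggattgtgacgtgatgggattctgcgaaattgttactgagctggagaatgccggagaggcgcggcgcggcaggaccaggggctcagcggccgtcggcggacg
Arrdc4, chr7:68749189-68749488, minus strand: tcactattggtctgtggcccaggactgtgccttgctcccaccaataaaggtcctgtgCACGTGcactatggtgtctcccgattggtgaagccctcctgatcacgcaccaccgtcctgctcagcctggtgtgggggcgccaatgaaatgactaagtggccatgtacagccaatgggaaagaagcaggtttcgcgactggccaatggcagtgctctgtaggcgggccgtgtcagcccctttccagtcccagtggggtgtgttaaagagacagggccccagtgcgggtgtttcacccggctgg

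The Txnip promoter held the receptor palindrome 172 bases before the start and the FOXO motif 121 bases before it. The palindrome occurred in 0.475% of the 32851 promoters of the table and the FOXO motif in 3.65%. The Klf9 promoter held the FOXO motif 100 bases before its start, and the Arrdc4 promoter held an E-box, found in 7.15% of promoters, 193 bases before its start. Promoters were matched for 6 of the 10 members (Txnip, Pdk4, Ddit4, Cdkn1a, Klf9 and Tsc22d3) and not for Nr3c1, Zbtb16, Angptl4 and Cebpd. These 6 had 9 promoters, the unit of the shares above. The palindrome was found in 1 of the 9 (Txnip), the FOXO motif in 2 (Txnip and Klf9) and the exact E-box CACGTG in 0. Variants of the E-box, such as the letters CACGAG that the Txnip sequence holds, were not searched. The count therefore does not show that E-box-like elements are absent. The palindrome was also found 188 bases before a start of Sgk1, whose mean was lower in exposed uteri, as given below. CACGTG was also found 246 bases before that start of Sgk1, 169 before one of Fkbp5 and 166 before one of Per1. As also given below, the mean of Fkbp5 was lower in exposed uteri and that of Per1 was level. A match is a run of letters and not a measured binding site.

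Pdk4 encodes a kinase that switches off pyruvate dehydrogenase and so spares glucose. It was 6.66, 7.42, 7.35 and 8.14 in exposed mice 1 to 4, against 6.96, 6.74, 6.97 and 6.95 in sham mice 1 to 4. Exposed mice 2, 3 and 4 lay above every sham mouse, and exposed mouse 1 below all of them. The log2 difference was 0.49 ± 0.25 (SE, 95% interval -0.07 to 1.04, limma adjusted p = 0.838, exact two-sided permutation p = 0.143). It was 0.730 without exposed mouse 1, 0.238 without exposed mouse 4 and 0.099 without exposed mice 2 and 4. Of its relatives, Pdk2 was higher in mean (0.29 ± 0.14, or 0.161 without sham mouse 2) and Pdk3 lower (-0.70 ± 0.45, or -0.31 without exposed mouse 4), and 0 of 6 measured genes of the pyruvate dehydrogenase group reached an unadjusted p under 0.05.

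Angptl4, a secreted inhibitor of lipoprotein lipase, was 8.85, 9.11, 9.13 and 9.84 in exposed mice 1 to 4, against 9.26, 9.06, 9.03 and 9.12 in sham mice 1 to 4. Exposed mouse 4 alone was above the sham range and exposed mouse 1 below it. Its log2 difference was 0.12 ± 0.18 (SE, 95% interval -0.29 to 0.53, limma adjusted p = 0.917), and -0.088 without exposed mouse 4. Fat cells express both Pdk4 and Angptl4, and the mean over 9 adipocyte markers was 6.73, 6.85, 5.72 and 6.00 in exposed mice 1 to 4, against 5.76 to 6.13 in sham mice. Adipoq (7.10) and Cidec (6.44) were highest in exposed mouse 1, and Fabp4 (8.87), Retn (7.75) and Plin1 (6.18) in exposed mouse 2. The other markers had their highest values in other mice. Plin4 was highest in exposed mouse 4 (8.18), with exposed mouse 2 at 8.16 and sham mice at 7.53 to 7.86. Lep was highest in sham mouse 3 (5.00) and Lpl in sham mouse 4 (8.27). Cd36 was highest in sham mouse 1 (6.05), with exposed mouse 1 at 6.01. The part of adipocyte content in the Pdk4 and Angptl4 values was not tested.

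Tsc22d3 encodes GILZ, a leucine zipper protein widely used as a readout of the receptor. It was 9.06, 9.22, 9.54 and 9.82 in exposed mice 1 to 4, against 9.30, 9.26, 9.27 and 9.06 in sham mice 1 to 4. Exposed mice 3 and 4 were above the sham range, and exposed mice 1 and 2 were below 3 of the 4 sham mice. The log2 difference was 0.19 ± 0.15 (SE, 95% interval -0.15 to 0.53, limma adjusted p = 0.852), and 0.054 without exposed mouse 4. Exposed mice 3 and 4 also had the highest mean over the gland markers, which Prss28, Prss29 and Spink1 carried, while Foxa2, the transcription factor of gland cells, was 7.78 and 7.16 there, 7.72 and 7.43 in exposed mice 1 and 2, and 7.53 to 7.96 in sham mice. The part of these markers in the Tsc22d3 values was not tested. The relatives Tsc22d1, Tsc22d2 and Tsc22d4 differed by -0.08 ± 0.12, -0.07 ± 0.09 and -0.02 ± 0.12.

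Klf9, a zinc finger repressor that acts with the progesterone receptor in the uterus, was 9.54, 9.23, 9.61 and 10.17 in exposed mice 1 to 4, against 9.50, 9.73, 9.28 and 9.67 in sham mice 1 to 4. Exposed mouse 4 was the highest of the 8 and exposed mouse 2 the lowest. On the log2 scale the difference was 0.09 ± 0.19 (SE, 95% interval -0.32 to 0.50, limma adjusted p = 0.941), and -0.087 without exposed mouse 4. Among 8 other KLF genes the mean was higher for 6 and lower for 2, with a median difference of 0.18, and 0 reached an unadjusted p under 0.05. Of these, Klf11 had the smallest p (0.55 ± 0.25, unadjusted p = 0.0506 in limma, with a difference of 0.349 without exposed mouse 4), and its values of 7.76, 8.77, 8.29 and 9.07 in exposed mice overlapped those of 7.77 to 8.24 in sham mice.

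Zbtb16 and Cebpd, both transcription factors, varied widely within each group. Zbtb16, which encodes PLZF and is induced strongly by glucocorticoids and progestins, was 9.89, 9.0, 10.22 and 10.10 in exposed mice, against 10.04, 9.83, 10.13 and 9.49 in sham mice. Exposed mouse 2 was the lowest, and the other 3 exposed mice overlapped the sham mice. Between groups the log2 difference was -0.07 ± 0.25 (SE, 95% interval -0.63 to 0.48, limma adjusted p = 0.973), and 0.193 without exposed mouse 2. Cebpd, a CCAAT/enhancer-binding protein of the acute phase response, was 7.76, 7.71, 8.86 and 8.75 in exposed mice, against 9.17, 8.45, 7.76 and 7.87 in sham mice. Each group held a high and a low pair of mice, and the log2 difference was -0.04 ± 0.35 (SE, 95% interval -0.83 to 0.74, limma adjusted p = 0.989), turning to 0.241 without sham mouse 1. Among 5 measured relatives of Cebpd, 1 mean was higher and 4 were lower, and 0 reached an unadjusted p under 0.05.

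Ddit4 and Cdkn1a were slightly lower in mean. Ddit4 encodes REDD1, which restrains the growth kinase complex mTORC1. It was 7.09, 6.90, 6.93 and 7.07 in exposed mice, against 6.98, 7.07, 7.01 and 7.33 in sham mice, a difference of -0.10 ± 0.10 (SE, 95% interval -0.33 to 0.13, limma adjusted p = 0.869). Sham mouse 4 was the highest and the other mice overlapped; without it the difference was -0.024. Cdkn1a encodes the cyclin-dependent kinase inhibitor p21 and was 7.79, 7.55, 7.49 and 7.87 in exposed mice, against 7.91, 7.60, 7.77 and 8.24 in sham mice. Its log2 difference was -0.21 ± 0.15 (SE, 95% interval -0.53 to 0.12, limma adjusted p = 0.843), and -0.085 without sham mouse 4, again the highest.

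Genes that share a function with Ddit4 and Cdkn1a had other patterns. The p27 gene Cdkn1b, also a cyclin-dependent kinase inhibitor, was 9.39, 9.95, 9.48 and 10.04 in exposed mice, against 9.29, 9.04, 9.15 and 9.30 in sham mice. All 4 exposed values were above all 4 sham values (0.52 ± 0.15 SE, limma unadjusted p = 0.00674, adjusted p = 0.838), and the difference was 0.241 without exposed mice 2 and 4. It was 1 of 6 CDK inhibitors without overlap, against 2.73% of all probe sets. Of 8 p53 targets, Trp53inp1 (0.69 ± 0.27) and Phlda3 (-0.29 ± 0.11) reached an unadjusted p under 0.05, and the list split into 4 higher and 4 lower means. Of 10 mTORC1 regulators, Sesn1 (0.44 ± 0.17) and Sesn3 (0.31 ± 0.13), both sestrins, reached an unadjusted p under 0.05 as higher, and 0 as lower.

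**Figure D2:**
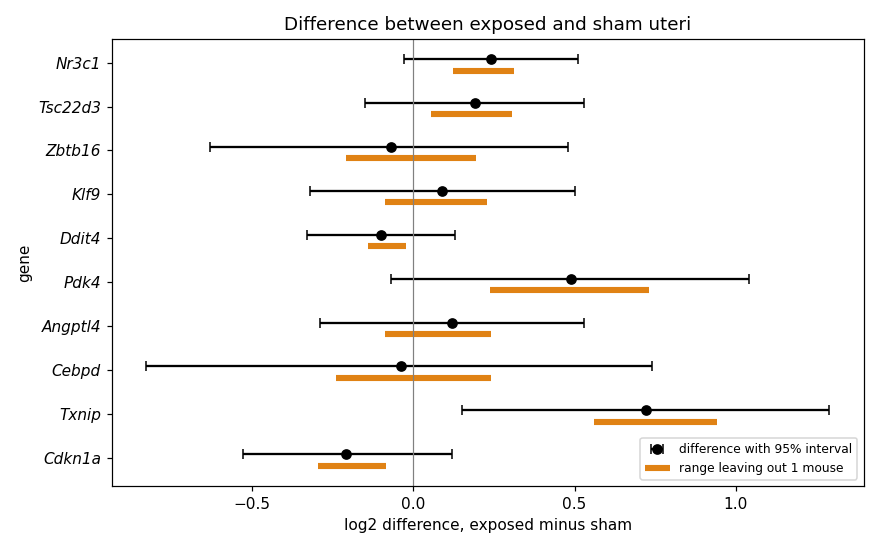
Log2 difference between exposed and sham uteri for each gene. Black points and bars give the difference and its 95% interval from limma, and orange bars the range of the difference when each of the 8 mice is left out in turn. The interval of Txnip, 0.15 to 1.29, is the 1 that leaves out 0, and the orange bars of Zbtb16, Klf9, Angptl4 and Cebpd cross 0.

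Exposed mouse 4 had the highest value of the 8 mice for 5 of the 10 members (Tsc22d3, Klf9, Pdk4, Angptl4 and Txnip), and for 21.7% of all probe sets, and the lowest for 0 members and 20.2% of probe sets. It was 0.60 above the sham mean for Tsc22d3, 0.62 for Klf9, 1.24 for Pdk4, 0.73 for Angptl4 and 1.22 for Txnip. Exposed mouse 2 had the lowest value for 4 members, and for 13.2% of all probe sets, and was 1.17 above the sham mean for Txnip and 0.51 for Pdk4. Exposed mouse 3 was 0.44 above it for both genes. Exposed mouse 1 was 0.07 above the sham mean for Txnip and -0.24 from it for Pdk4. The SD was larger in exposed than in sham mice for 6 of the 10 members (60.0%) and for 65.8% of all probe sets. Its median over the members was 0.409 in exposed and 0.227 in sham mice, and over all probe sets 0.176 in exposed and 0.134 in sham mice.

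Members were compared with each other over the 8 mice in 45 pairs, and 0 pairs passed after Benjamini-Hochberg adjustment over the 45. The pair with the largest r was Pdk4 and Angptl4 (Pearson's r = 0.88, exact permutation p = 0.0142, adjusted p = 0.146; Spearman's rho = 0.62, exact permutation p = 0.115, adjusted p = 0.575). Without exposed mice 2 and 4, the farthest from the median of Pdk4, r was 0.55. Tsc22d3 and Pdk4 had r = 0.86 (exact permutation p = 0.0144, adjusted p = 0.146) and rho = 0.64 (exact permutation p = 0.0962, adjusted p = 0.575), and r was 0.28 without exposed mice 3 and 4. Pdk4 and Txnip had r = 0.85 (exact permutation p = 0.00404, adjusted p = 0.146) and rho = 0.71 (exact permutation p = 0.0576, adjusted p = 0.575), and r was 0.61 without exposed mice 2 and 4. With each group's mean removed, r was 0.93 for Pdk4 and Angptl4, 0.83 for Tsc22d3 and Pdk4 and 0.79 for Pdk4 and Txnip. These relations rest in large part on the mice left out, and all values of a mouse share 1 array and 1 dissection. Between Nr3c1 and the 9 responsive genes r ran from -0.29 for Cdkn1a (exact permutation p = 0.444) to 0.37 for Txnip (exact permutation p = 0.407). Without sham mice 3 and 4, the farthest from the median of Nr3c1, r ran from -0.87 for Cebpd to 0.21 for Txnip. For Cebpd it was 0.25 over the 8 mice, so these values also depend on the mice left out.

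**Figure D3:**
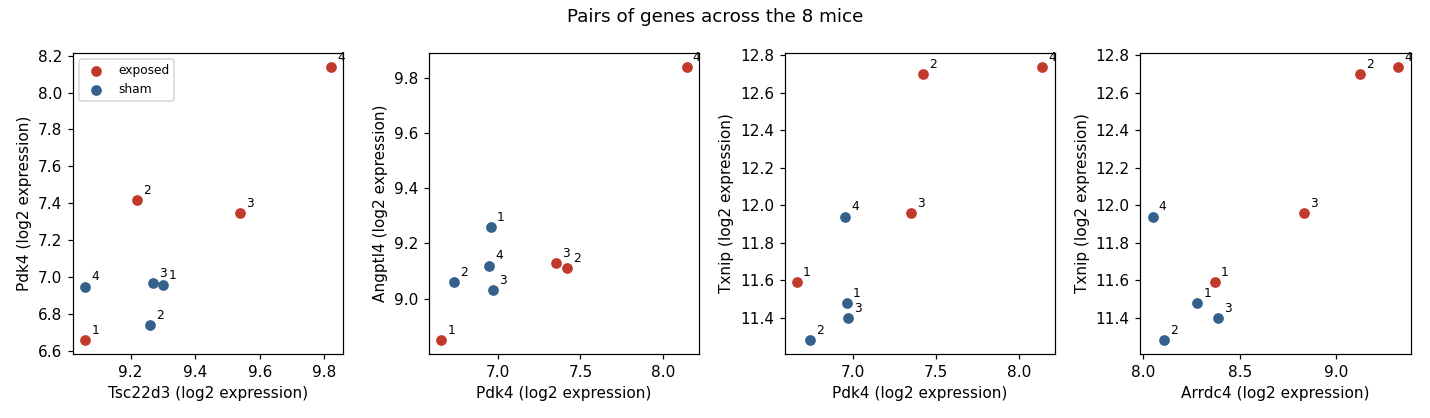
Log2 expression of 4 pairs of genes, with exposed mice in red and sham mice in blue, numbered as in the labels. Exposed mouse 4 lies at the upper right of each panel. In the panel of Arrdc4 and Txnip, exposed mice 2, 3 and 4 lie above 8.8 on the Arrdc4 axis and every sham mouse lies below 8.4.

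The genes most like Nr3c1 over the 8 mice, of 17114 searched, were Atp6v0b, Acd, Yap1, Phf10 and Rpap3, with Pearson's r of 0.980, 0.950, 0.934, 0.926 and 0.922. Each was lowest in sham mouse 3, as Nr3c1 was, and without sham mice 3 and 4 their r was 0.34 to 0.80. Those most like Tsc22d3 were Shb, Plekhh1, Spata6, Col9a1 and Wipi1, with r of 0.974, 0.972, 0.969, 0.968 and 0.968. Their r was 0.79 to 0.95 without exposed mice 3 and 4, the mice with the highest Tsc22d3. Since these are the extremes of a search over all genes with 8 mice, no p is given.

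The receptor chaperones that were measured had lower means in exposed uteri. All 6 measured genes of the 8 listed had lower means, with a median difference of -0.36, and Hsp90ab1 and Hspa8 were not measured. Of the 6, 3 reached an unadjusted p under 0.05 in limma as lower, where 2.5% of all probe sets did so, and 0 passed adjustment. Fkbp5, a cochaperone that dampens the receptor and is itself a classical target of it, was 9.26, 8.05, 8.88 and 8.56 in exposed mice 1 to 4, against 9.58, 9.64, 9.27 and 8.86 in sham mice 1 to 4. Exposed mouse 2 was the lowest, and exposed mice 1 and 3 lay within the sham range. Its log2 difference was -0.65 ± 0.25 (SE, limma unadjusted p = 0.0272, adjusted p = 0.838), and -0.27 without exposed mice 2 and 4. Fkbp4, the cochaperone that favours movement of the receptor to the nucleus, differed by -0.36 ± 0.15 and Ptges3, the p23 cochaperone, by -0.32 ± 0.13. Both were lowest in exposed mouse 4 (9.17 for Fkbp4 and 7.65 for Ptges3), and without it the differences were -0.201 and -0.209. The mean over the epithelium markers was also lowest in exposed mouse 4 (8.27), and 3 of these 8 markers reached an unadjusted p under 0.05 as lower in exposed uteri (median difference -0.34). The part of epithelial content in the chaperone values was not tested.

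Further genes known to be induced by glucocorticoids went both ways. Of 22 measured in that list, 10 had higher and 12 lower means with a median difference of -0.05; 1 reached an unadjusted p under 0.05 as higher (Bcl6), 2 as lower (Fkbp5 and Sgk1), and 0 passed adjustment. Sgk1, a kinase that regulates epithelial sodium transport and embryo receptivity, was 9.23, 7.67, 7.72 and 7.76 in exposed mice 1 to 4, against 9.04, 8.20, 9.20 and 9.34 in sham mice 1 to 4. Exposed mice 2, 3 and 4 were below every sham mouse, and exposed mouse 1 was close to the highest sham value. Between groups it differed by -0.85 ± 0.36 (SE, limma unadjusted p = 0.0397, adjusted p = 0.838), and -0.471 without exposed mice 2 and 4. Bcl6, a transcriptional repressor, was 7.28, 7.94, 7.70 and 8.29 in exposed mice, against 7.30, 7.38, 7.22 and 7.45 in sham mice. Its difference was 0.46 ± 0.18 (SE, limma unadjusted p = 0.0296, adjusted p = 0.838), and 0.301 without exposed mouse 4. The clock gene Per1, which the receptor induces directly, was level at 8.47 ± 0.14 in exposed and 8.42 ± 0.29 in sham mice (SD, n = 4 each; log2 difference 0.04 ± 0.14).

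**Figure D4:**
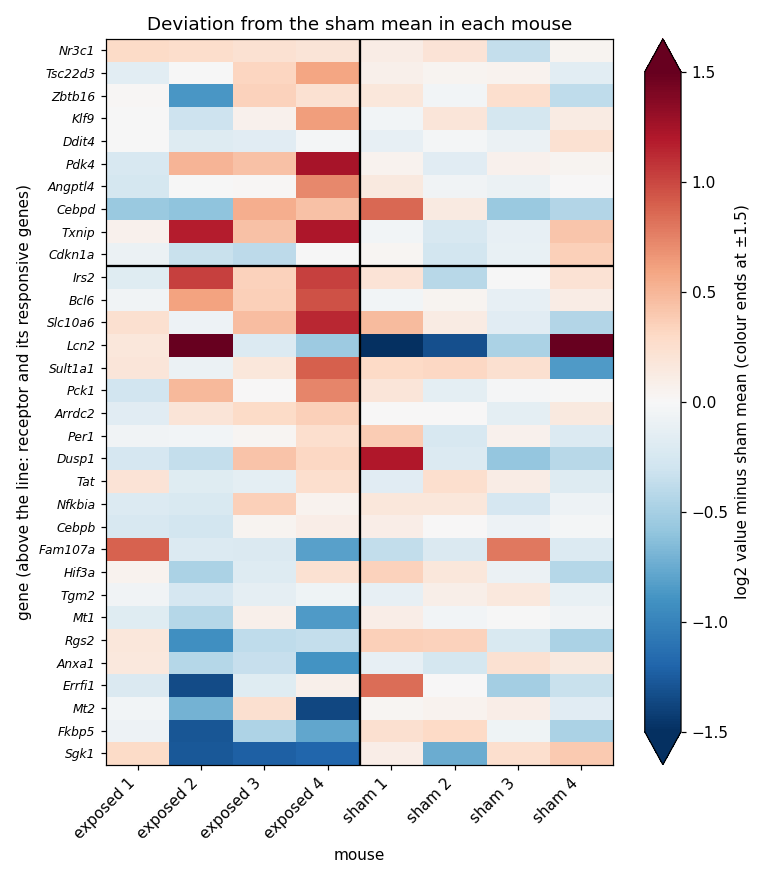
Log2 value minus the sham mean for the 10 members, above the horizontal line, and 22 other glucocorticoid-induced genes, ordered by their difference, in exposed mice on the left and sham mice on the right. Exposed mouse 4 is red for Pdk4, Txnip, Klf9 and Tsc22d3 and blue for Fkbp5 and Sgk1.

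Exposed mice 2, 3 and 4 were above every sham mouse for Pdk4 and below every sham mouse for Sgk1. Exposed mouse 1 was below every sham mouse for Pdk4 (6.66) and close to the highest sham value for Sgk1 (9.23). Glucocorticoids are known to induce both genes, and the cause of these values was not tested. Genes that glucocorticoids are known to lower had 3 higher and 7 lower means among 10 measured, with a median difference of -0.12. Ptgs2, the inducible cyclooxygenase, was the 1 of these at an unadjusted p under 0.05 (-0.87 ± 0.25 SE, limma unadjusted p = 0.0062, adjusted p = 0.838), at 6.11, 5.39, 5.96 and 5.35 in exposed mice, against 6.97, 6.04, 6.28 and 6.99 in sham mice. Exposed mouse 1 lay just above sham mouse 2, so the groups overlapped, and the difference was -0.533 without exposed mice 2 and 4. Tnf and Il1b, both inflammatory cytokines, differed by -0.27 ± 0.12 and -0.33 ± 0.16 (-0.201 for Il1b without exposed mouse 2). Tnf was 4.07 to 4.49 in exposed and 4.50 to 4.85 in sham mice, so its groups nearly met but did not overlap. Its signal was low, where the array median was 7.08. Groups did not overlap for 2.73% of all probe sets.

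Of the enzymes that set local corticosterone, Hsd11b1 was 6.43, 7.42, 6.26 and 7.41 in exposed mice, against 6.30, 6.18, 6.48 and 7.01 in sham mice. Hsd11b2 was 9.73, 8.89, 9.38 and 8.78 in exposed mice, against 9.73, 9.61, 10.09 and 9.0 in sham mice. Exposed mice 2 and 4 had the highest Hsd11b1 and the lowest Hsd11b2 values of the 8 mice. The log2 differences were 0.39 ± 0.29 for Hsd11b1 and -0.41 ± 0.25 for Hsd11b2 (SE, limma adjusted p = 0.845 and 0.838), and -0.146 and -0.051 without these 2 mice. H6pd, which supplies the cofactor of the Hsd11b1 enzyme, was 9.27 in exposed mouse 4, 8.13 to 8.31 in the other exposed mice and 8.08 to 8.29 in sham mice. Of the 5 measured genes of ligand supply, 0 reached an unadjusted p under 0.05.

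Of the related receptors, Nr3c2, the mineralocorticoid receptor that also binds corticosterone, was 6.99, 8.07, 7.19 and 7.29 in exposed mice, against 6.79, 6.73, 6.32 and 7.06 in sham mice. Exposed mouse 2 was the highest, and exposed mouse 1 lay below sham mouse 4. The log2 difference was 0.66 ± 0.23 (SE, 95% interval 0.15 to 1.17, limma unadjusted p = 0.0166, adjusted p = 0.838), and 0.430 without exposed mouse 2 or 0.365 without exposed mice 2 and 4. Pgr, the progesterone receptor, was 10.42, 11.34, 10.89 and 10.52 in exposed mice, against 10.50, 10.29, 10.30 and 10.78 in sham mice (0.33 ± 0.20, and 0.142 without exposed mouse 2). Coregulators of the steroid receptors had 6 higher and 2 lower means among 8 measured, and 0 reached an unadjusted p under 0.05. Ncoa3, a coactivator, differed by 0.21 ± 0.10, Crebbp, a histone acetyltransferase, by 0.17 ± 0.10 and Smarca4, a chromatin remodelling ATPase, by -0.26 ± 0.13. For Smarca4 the difference was -0.152 without exposed mouse 4 and -0.043 without exposed mice 2 and 4.

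Of 10 measured FOXO and PPAR genes, including targets that respond to fasting as Pdk4 and Angptl4 do, 8 had higher and 2 lower means. Cpt1a, which admits fatty acids to mitochondria, was 8.91, 8.98, 8.91 and 9.16 in exposed mice, against 8.79, 8.76, 8.81 and 8.61 in sham mice. All exposed values were above all sham values, by a mean of 0.25 ± 0.09 (SE, limma unadjusted p = 0.0242, adjusted p = 0.838). Groups did not overlap for 3 of the 10 genes, in both directions, and for 2.73% of all probe sets. Ucp3, a mitochondrial carrier, was 3.54 to 3.75 in exposed mice, all below the 3.79 to 3.95 of sham mice (-0.22 ± 0.09). The signal of Ucp3 was low, where the array median was 7.08. Among the genes without overlap, the lower direction rested on Ucp3 alone. Acot2, an acyl-CoA thioesterase chosen here for its lack of overlap, was 8.98 to 9.15 in exposed and 8.75 to 8.95 in sham mice. Pparg, the fat cell nuclear receptor, differed by -0.27 ± 0.12 with overlap. In this list 2 genes reached an unadjusted p under 0.05 as higher and 2 as lower, and 0 passed adjustment.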

How the data were processed

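Whole uterus of 8 mice was measured on 1 array each, 4 exposed and 4 sham, grouped by the treatment in the labels. The authors deposited log2 values for 22206 probe sets; the log2 scale is read from their range (2.75 to 13.6). The tool was Partek, per the submitters' processing notes; the sources used here do not give its steps. Sorted columns differ by at most 0.0198, so arrays already shared a distribution, which sets a change common to all genes to 0. No batch is given. Symbols came from the platform annotation (19572 probe sets with 1 symbol, 0 with several, 2634 with none), keeping the highest-mean probe set per gene.

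Group differences came from limma 3.58.1 (R 4.3.3) without covariates, adjusted over all probe sets, with a threshold of 0.05. Single genes were also tested by exact permutation over 70 assignments of mice, which cannot give a p below 0.0286. On simulated arrays of 22206 probe sets, the exposed against sham fit recovered 51.5% of the 1.5-fold changes, 84.8% at 2-fold and 97.0% at 4-fold. The changes were placed among all probe sets, and false calls averaged 6.2. Simulated probe sets varied independently of each other, with the same SD in both groups. In the real arrays 1 principal component carried 38.6% of the variance, and the SD was larger in exposed mice for 65.8% of probe sets. The rates therefore need not hold for the real arrays. The members varied more, with a median SD of 0.409 in exposed and 0.227 in sham mice. Over all probe sets it was 0.176 and 0.134, so these rates cannot be read as those of the members. Promoters are from RefSeq (GRCm38.p6).

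The members and lists were chosen with earlier results of these data known. Named genes were the members, the 3 genes of smallest p in each of 16 lists, 7 genes fixed by name and the 5 genes of highest r with Nr3c1 and with Tsc22d3, without small RNAs, predicted genes or receptors of the olfactory and vomeronasal families; the cell type markers were named after their values were seen. Some genes of these lists are not reported here. Alternatives comprised other scalings, expression filters (25th or 50th percentile), other variance priors, weights for arrays, a replicate block and leaving out mice; those leaving out 2 mice together were added after the data were seen.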

Additional observations from a re-analysis of the deposited data

Results flagged for a closer look

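Of 136 groups of 4 mice examined for 68 genes, 9 held a mouse far from the other 3 by Dixon's gap test; chance flags about 1 group in 20. Among exposed mice, H6pd was 9.27 in mouse 4 (others 8.13 to 8.31), Sgk1 9.23 in mouse 1 (others 7.67 to 7.76) and Klf15, a KLF gene, 6.66 in mouse 2 (others 7.01 to 7.05). In sham mouse 2, Pdk4 was 6.74 (others 6.95 to 6.97) and Pdk2 8.75 (others 9.24 to 9.29). In sham mouse 4, Fkbp4 was 10.15 (others 9.95 to 9.96) and Angptl7, a relative of Angptl4, 8.20 (others 10.33 to 10.61). In sham mouse 3, Yap1 was 8.28 (others 8.62 to 8.64) and Rpap3 6.98 (others 7.26 to 7.28), both chosen for their likeness to Nr3c1.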

How the results depend on the processing

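No member passed adjustment under any of 19 alternatives (189 values, adjusted p 0.249 to 1), and 6 kept their direction in all of them (Cdkn1a, Ddit4, Nr3c1, Pdk4, Tsc22d3 and Txnip). Other scalings of the arrays moved no member's direction. With the replicate number as a block, the count of probe sets at an unadjusted p under 0.05 was 1274 and that of members 1, with 0 past adjustment; same-numbered mice deviated together with r of -0.24 to 0.09, so the numbers were not taken as pairs. The cause of the following changes was not tested. The count of probe sets past adjustment was 7 without exposed mice 1 and 2 and 0 to 1 when 1 mouse was left out (1 without exposed mouse 1). Probe sets at an unadjusted p under 0.05 numbered 796 with the filter at the 50th percentile (fewer are tested), 1950 without exposed mice 1 and 2, and 726 to 2545 when 1 mouse was left out. Members at an unadjusted p under 0.05 numbered 0 without moderation of the variance, where 1073 of all probe sets were under it. They numbered 3 without exposed mice 1 and 2 (1950 probe sets) and 0 without exposed mice 2 and 4 (884 probe sets). When 1 mouse was left out they numbered 0 to 2 (726 to 2545 probe sets). The main fit had 1 member and 1203 probe sets, so the rise to 3 members came with a rise over all probe sets. Members without overlap numbered 3 without exposed mice 1 and 2, where 17.7% of all probe sets did not overlap. They numbered 1 without exposed mice 2 and 4 (12.2%), and 0 to 2 when 1 mouse was left out (4.58% to 10.2%). Smaller groups can overlap less, and the share over all probe sets also differed between settings of equal group size. The median over members was 0.356 without exposed mice 1 and 2, and -0.088 to 0.210 when 1 mouse was left out, the lowest without exposed mouse 4.

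Without exposed mice 1 and 2, differences that changed sign were 0.284 for Zbtb16, 0.490 for Cebpd, -0.046 for Angptl6, 0.024 for Angptl1 and 0.071 for Cebpb. Without exposed mice 2 and 4, differences that changed sign were 0.178 for Zbtb16, -0.128 for Angptl4, 0.0077 for Mlx, 0.079 for Tsc22d4, 0.114 for Pdk3, -0.036 for Pdp1, 0.0058 for Cdkn2d, -0.014 for Per1, -0.146 for Hsd11b1 and -0.0098 for Shb. With array weights, differences that changed sign were 0.018 for Angptl1 and -0.0076 for Per1. When 1 mouse was left out, differences that changed sign ranged over -0.210 to 0.193 for Zbtb16, -0.087 to 0.227 for Klf9, -0.088 to 0.242 for Angptl4, -0.239 to 0.241 for Cebpd, -0.142 to 0.0064 for Tsc22d1, -0.108 to 0.043 for Tsc22d4, -0.046 to 0.072 for Angptl6, -0.076 to 0.061 for Angptl1, -0.037 to 0.169 for Per1 and -0.021 to 0.104 for Shb.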
